A study of Solanum lycopersicum with 16 samples.

Results

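Tomato shoots under salt, low pH and flood were compared with each other directly, with no control plants in between. The members were all wells of the shoot samples titled as treated with salt, acid or flood, which are 6 of the 16 samples of the series, and each stress was set against each of the other two at 2 h and at 24 h. Of 1425 wells of the series with a value, 539 belong to these shoots and 530 of them were used, 184 under salt, 165 under low pH and 181 under flood. They cover 22 target genes: the 18 SlIDD genes, SlIDD-like1, SlSTOP1, STF4 and CRF5. STF4 and CRF5 were not analysed under low pH, so 20 targets could be compared there.

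The plants were tomato (Solanum lycopersicum) seedlings 3 weeks old, of the cultivar M82, grown in potting medium in a greenhouse. Salt shoots came from plants given water with 200 mM NaCl, low pH shoots from plants given water of pH 4.2, and flood shoots from plants with excess water up to the crown. The assay was qRT-PCR with SYBR Green, where the Ct is the PCR cycle at which the fluorescence of a well crosses a threshold, so that a transcript that is more abundant has a lower Ct. Each gene had up to 4 wells per stress and time. The wells were not tied to plants in the labels, and the study's methods state 4 biological samples and 2 technical replicates, so every p-value measures the spread between wells, and wells of 1 plant would make it too small. The roots, and the controls of either tissue, were not used here.

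INDETERMINATE DOMAIN (IDD) proteins are plant-specific transcription factors with a conserved run of zinc fingers near the amino end. In Arabidopsis and rice, members of the family act in gibberellin signalling with DELLA proteins, in the patterning of root and leaf tissues, in the bending of shoots against gravity and in the transition to flowering. STOP1 is a related zinc finger factor that in Arabidopsis is required for tolerance of protons and aluminium, partly through a malate transporter of the root. Salt limits water uptake and brings in sodium, low pH exposes roots to protons and shifts the ions in solution, and flooding cuts the oxygen supply of the root, so the shoot meets the 3 stresses mostly through signals and transport from below.

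Ubiquitin, the only reference gene, was measured on each plate and subtracted from the targets of the same plate. The value used throughout is the delta Ct, the Ct of a target minus the mean Ct of ubiquitin on the same plate, under the same stress and at the same time. A delta Ct that is 1 cycle lower corresponds to a doubling of the transcript if amplification were perfect, so the difference of 2 delta Ct values with the sign turned is called the log2 difference, and folds are computed from it. Amplification efficiency is not given in the sources used here, and levels of different genes are therefore not compared. A target was called where the limma p, with the error of ubiquitin included and Benjamini-Hochberg adjustment over the targets of a comparison, was under 0.05. In these bulk shoots fewer cells of a type and less RNA per cell cannot be told apart, and no tissue marker is among the targets.

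Each stress was run on plates of its own, 1 for SlIDD1 to SlIDD11 and 1 for the other targets, so that plate and stress cannot be told apart. Ubiquitin was measured on the same plates, so subtracting it does not separate plate from stress. Ubiquitin itself differed between the stresses. On the first plate at 2 h its mean Ct was 15.84 ± 0.16 under salt, 14.95 ± 0.23 under low pH and 15.72 ± 0.22 under flood (SD, n = 4 wells each), so low pH was the earliest. On the second plate at 2 h it was 15.50 ± 0.13 under salt, 17.20 ± 0.25 under low pH and 16.01 ± 0.24 under flood (SD, n = 4 wells each), so there low pH was the latest. At 24 h the first plate held means of 16.41 ± 0.20 for salt (SD, n = 4), 15.68 ± 0.21 for low pH (SD, n = 4) and 15.19 ± 0.17 for flood (SD, n = 3), and the second plate means of 16.37 ± 0.19, 16.90 ± 0.17 and 16.11 ± 0.14 (SD, n = 4 each). Of the 12 pairs of stresses compared per plate and time, 9 passed an exact two-sided permutation test at the smallest p it allows, 0.0286, which is 0.0381 after adjustment over the 12. The exceptions were salt against flood on the first plate at 2 h (0.13 cycles, exact p = 0.371), salt against flood on the second plate at 24 h (0.26 cycles, exact p = 0.0857) and low pH against flood on the first plate at 24 h (0.49 cycles, exact p = 0.0571).

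The 2 plates of low pH shoots also stood apart from each other. Their ubiquitin came 2.25 cycles later on the second plate than on the first at 2 h and 1.22 cycles later at 24 h. Under salt the same gap was -0.34 and -0.04 cycles, and under flood it was 0.29 and 0.92 cycles. A shift of ubiquitin enters every target of its plate with the same size, and for this reason each difference below was also computed with other references, as described at the end.

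**Figure D1:**
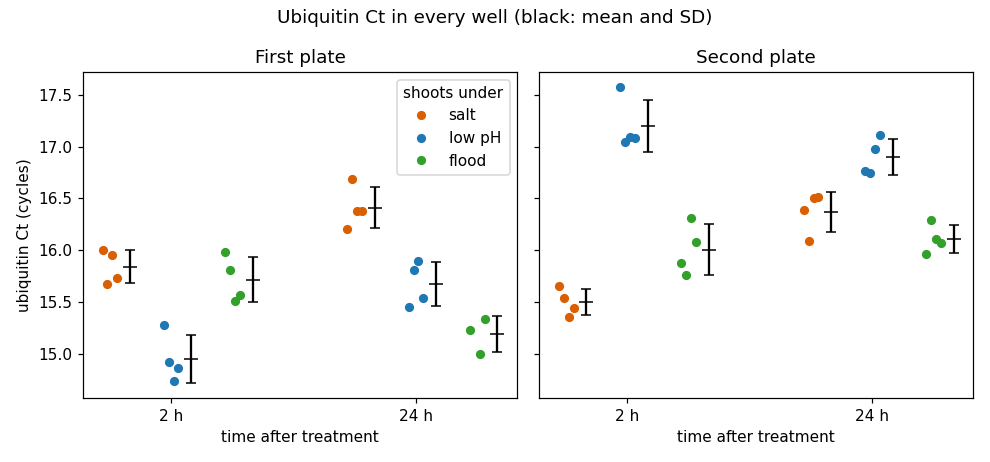
Ubiquitin Ct in cycles for every well of shoots under salt, low pH and flood at 2 h and 24 h, the first plate on the left and the second on the right, with the mean and SD in black. Low pH wells lay lowest on the first plate at 2 h (mean 14.95) and highest on the second plate at both times (means 17.20 and 16.90).

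Relative to ubiquitin of the same plate, salt and low pH shoots differed in fewer targets at 2 h than at 24 h. At 2 h 3 of 20 targets were called (15.0%), 1 higher and 2 lower under salt, and the median log2 difference of salt minus low pH over all targets was -0.31. At 24 h 11 of 20 were called (55.0%), 4 higher and 7 lower under salt, with a median of -0.51. When the mean of all targets of a plate replaced ubiquitin, 5 were called higher under salt and 3 lower at 2 h, against 9 higher with 5 lower at 24 h. The low count at 2 h belongs to this reference: it was 13 with ubiquitin of both plates and 15 with no reference, beside 17 with either at 24 h. The called targets lower under salt at 24 h included SlIDD3, SlIDD6, SlIDD8 and SlIDD9, and those higher under salt included SlIDD15, SlIDD16 and SlIDD18. The signs at 24 h went largely with the plate. Salt lay lower in 9 of the 11 targets of the first plate (median -0.84) and higher in 7 of the 9 of the second (median 0.53).

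Against flood, salt shoots were mostly the lower ones. At 2 h 10 of 22 targets were called (45.5%), and 9 of the 10 were lower under salt, with a median log2 difference of salt minus flood of -0.76. At 24 h again 10 of 22 were called (45.5%), 9 of them lower under salt, with a median of -0.61. SlIDD14 was the target called higher under salt at both times. When the mean of targets served as the reference, the split turned to 5 higher and 1 lower at 2 h. At 24 h it turned to 10 higher and 5 lower, so the direction of the split changed with the reference. That mean includes SlIDD9, which was far lower under salt. On the first plate the Ct difference of salt minus flood was 1.85 cycles as a mean over targets and 1.26 as a median at 2 h. At 24 h it was 2.37 and 1.94 cycles. A mean without SlIDD9 was not tested.

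Low pH and flood shoots differed in both directions. At 2 h 11 of 20 targets were called (55.0%), 2 higher and 9 lower under low pH, with a median log2 difference of low pH minus flood of -0.47. At 24 h 14 of 20 were called (70.0%), 6 higher and 8 lower, with a median of -0.24. With the mean of targets as the reference the split at 2 h was 4 higher and 3 lower, and at 24 h 7 higher and 8 lower. The number of calls did not put this pair above the others with each reference, since ubiquitin of both plates gave 12 calls at 24 h here, 17 for salt against low pH and 18 for salt against flood. The 6 called higher at 24 h were SlIDD3, SlIDD6, SlIDD7, SlIDD8, SlIDD9 and SlIDD13. The direction at 24 h went largely with the plate. On the first plate 5 were called higher and 2 lower (median 0.28), on the second 1 higher and 6 lower (median -1.24). The part of the plate in this split was not tested.

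Ordered by their mean level relative to ubiquitin of the same plate at 2 h, flood was the highest of the 3 stresses in 13 of 20 targets, low pH in 5 and salt in 2. At 24 h flood was highest in 9, low pH in 8 and salt in 3. Salt was the lowest in 10 targets at 2 h and in 9 at 24 h, and low pH in 7 and 8. With the mean of targets as the reference, flood was above both others in 7 of 20 targets at 2 h and in 6 at 24 h, and salt was above both in 8 at either time. Neighbours in the order often did not differ beyond their spread. All 3 pairs were called in 2 targets at each time: SlIDD2 (flood above salt above low pH) and SlIDD9 (flood above low pH above salt) at 2 h, and SlIDD3 and SlIDD9 (both low pH above flood above salt) at 24 h. Counted by wells, the ranges of the 2 stresses did not overlap in 5, 15 and 11 targets at 2 h for salt against low pH, salt against flood and low pH against flood, and in 14, 12 and 14 at 24 h.

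**Figure D2:**
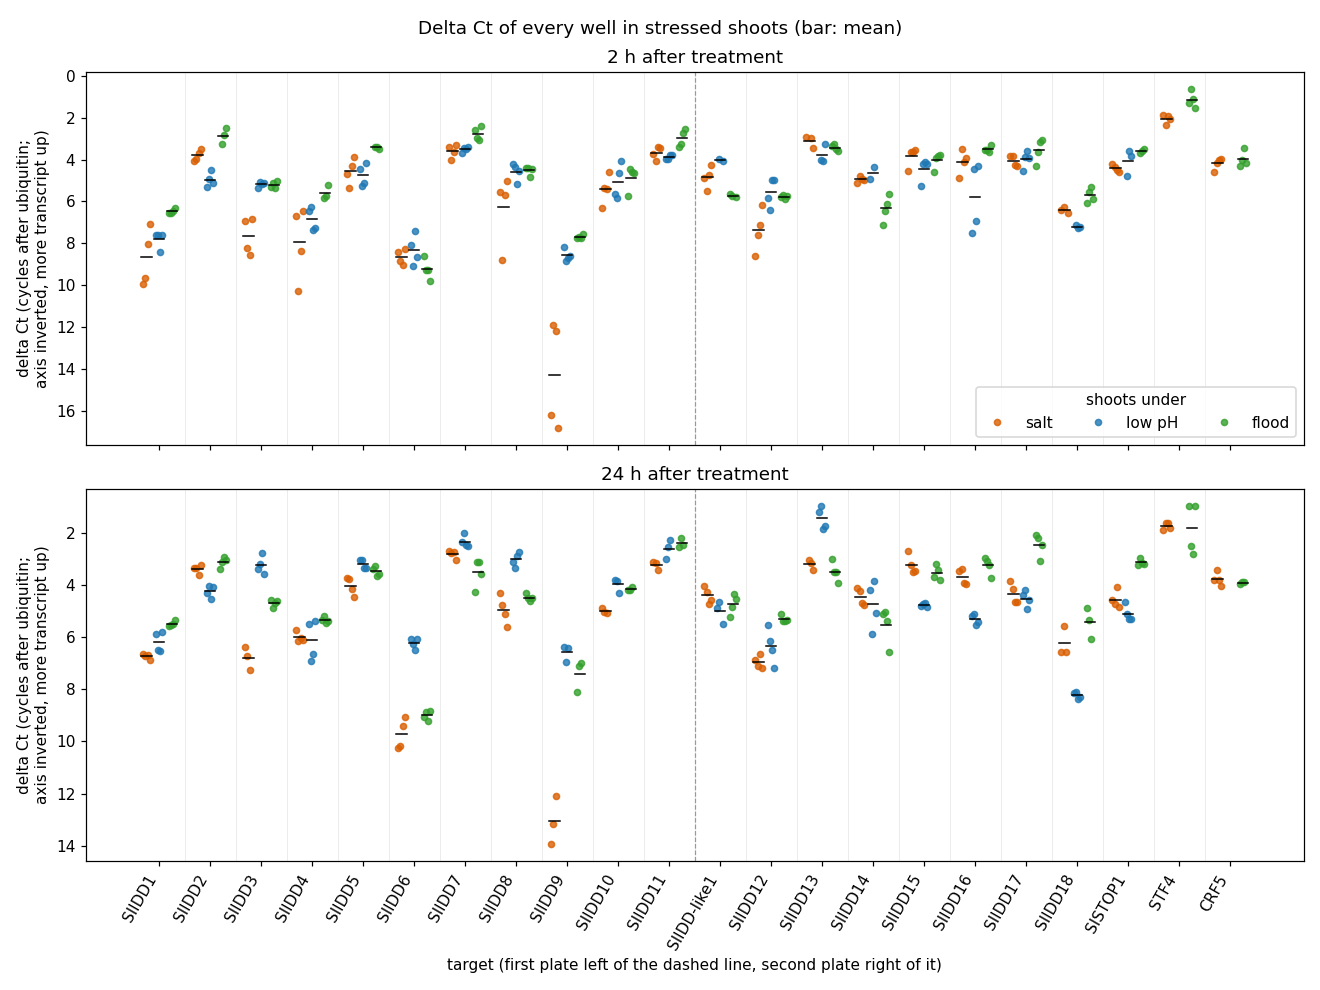
Delta Ct in cycles of every well for each target, at 2 h in the upper panel and at 24 h in the lower, on an inverted axis so that more transcript lies higher, with a bar for the mean and a colour for each stress. The SlIDD9 wells under salt (11.92 to 16.81 at 2 h and 12.08 to 13.95 at 24 h) lay below all other wells of that gene.

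**Figure D3:**
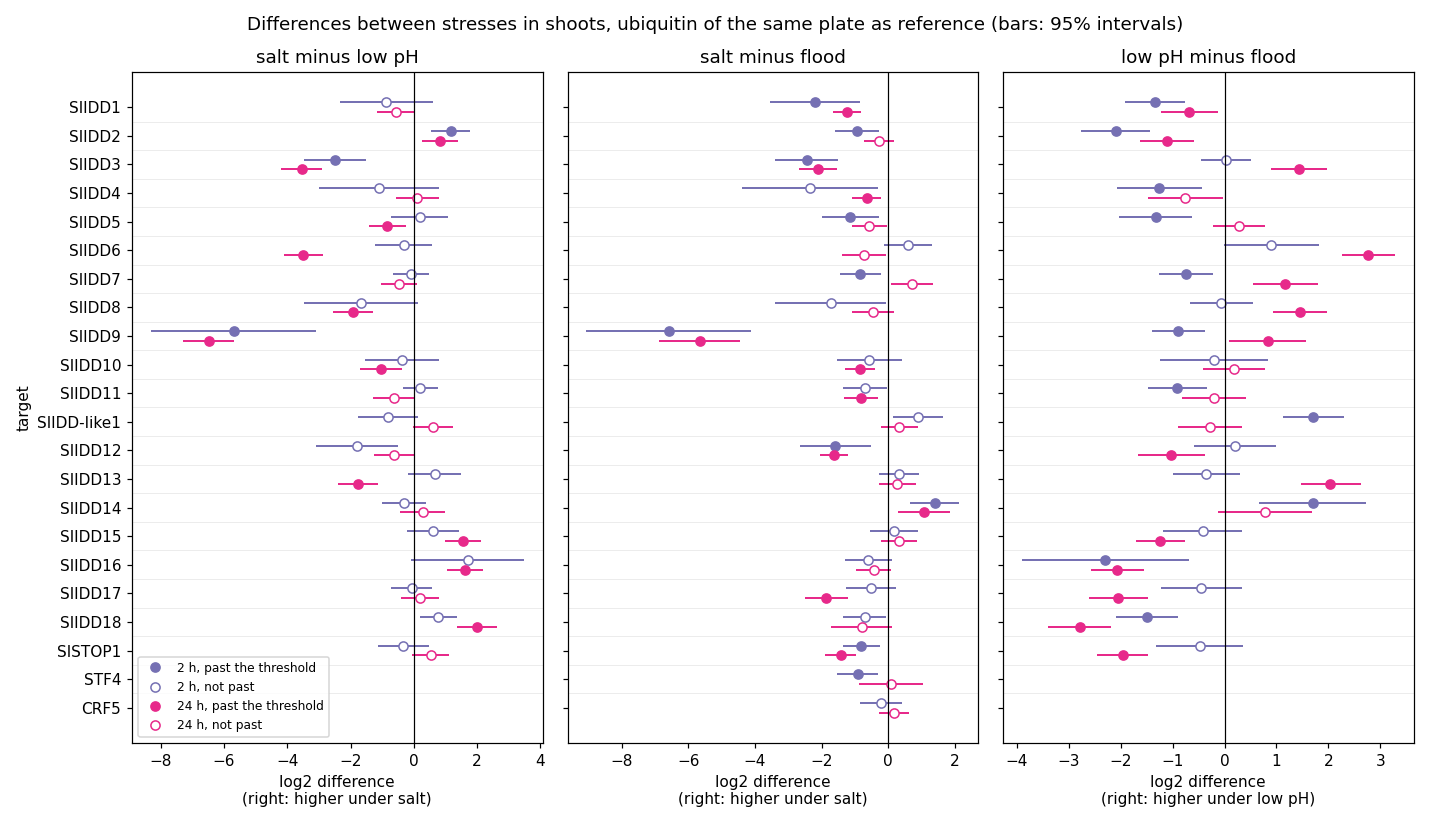
Log2 differences between stresses for each target with 95% intervals, one panel for each pair and a colour for each time, with filled points for called targets and open points for the others. SlIDD9 lay farthest to the left in both panels with salt (-5.70 and -6.49 against low pH, -6.59 and -5.66 against flood).

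SlIDD9 showed the widest gap between stresses. The study describes it as a close homolog of Arabidopsis STOP1, and also reports synteny between its locus and that of SlIDD-like1. In the gene lists used here it stands with SlIDD5, SlIDD12 and SlIDD-like1. At 2 h its delta Ct was 16.22, 11.92, 12.19 and 16.81 in the 4 salt wells. The low pH wells gave 8.16, 8.86, 8.72 and 8.60, and the flood wells 7.76, 7.70, 7.77 and 7.56. No salt well reached the range of either other stress, and the salt wells themselves fell into an earlier and a later pair about 4 cycles apart. The log2 difference was -5.70 ± 1.14 (SE) for salt minus low pH (adjusted p = 0.00938) and -6.59 ± 1.09 for salt minus flood (adjusted p = 0.00208), or 52.0-fold and 96.2-fold lower under salt. These folds rest on late wells. The raw Ct of SlIDD9 under salt was 30.13 ± 2.59 at 2 h (SD, n = 4, from 27.77 to 32.65) and 29.48 ± 0.94 at 24 h (SD, n = 3). The latest well of all those used was among them. Without well row 1 the gap to low pH at 2 h was -4.86 and no longer passed (adjusted p = 0.0591).

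At 24 h the salt wells of SlIDD9 lay at 13.95, 13.17 and 12.08, the low pH wells at 6.36, 6.94 and 6.43, and the flood wells at 8.11, 7.09 and 7.01. Salt was again apart from both, and low pH lay above flood in transcript with no overlap. Salt was 89.7-fold below low pH (log2 difference -6.49 ± 0.39, adjusted p = 3.80e-15) and 50.6-fold below flood (-5.66 ± 0.53, adjusted p = 3.22e-05). Low pH and flood changed places with time: low pH minus flood was -0.89 ± 0.24 at 2 h (adjusted p = 0.00787) and 0.83 ± 0.35 at 24 h (adjusted p = 0.0443). Both of these small differences are weak. The first turned to 0.09 with ubiquitin of both plates and was lost without well row 2 or 4 (-0.76 and -0.86, adjusted p = 0.0959 and 0.0572). The second was lost without well row 1 or 3 (0.46 and 0.78, adjusted p = 0.315 and 0.190) and with the well row as a replicate block (adjusted p = 0.0876).

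SlSTOP1, the proton tolerance factor itself, carries the same locus name as SlIDD9 in the deposited sheet but was a separate assay on the second plate, and its wells did not follow those of SlIDD9. At 24 h its delta Ct was 4.59, 4.73, 4.09 and 4.86 under salt, 4.64, 5.11, 5.31 and 5.32 under low pH, and 3.24, 2.96, 3.16 and 3.18 under flood. All flood wells lay before all wells of the other stresses, and salt and low pH overlapped. The log2 difference was -1.43 ± 0.22 for salt minus flood (adjusted p = 6.10e-05) and -1.96 ± 0.23 for low pH minus flood (adjusted p = 3.43e-07). Salt minus low pH was 0.53 at 24 h, with a 95% interval from -0.06 to 1.12 (adjusted p = 0.0953). At 2 h salt minus flood was called (-0.81 ± 0.26, adjusted p = 0.0236), whereas low pH minus flood was -0.48 with an interval from -1.33 to 0.36. Where SlIDD9 was 50.6-fold lower under salt than under flood at 24 h, SlSTOP1 was 2.70-fold lower. For low pH minus flood at 24 h SlIDD9 stood at 0.83 and SlSTOP1 at -1.96. The 2 assays lie on different plates, whose medians in that pair were 0.28 and -1.24. With the mean of targets of each plate SlIDD9 fell to 0.34 (adjusted p = 0.332) and SlSTOP1 stood at -1.01. At 2 h both lay below flood (-0.89 and -0.48, the latter not called).

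SlIDD3 and SlIDD15 are kin of Arabidopsis IDD12, whose function is not settled, and between salt and low pH they lay on opposite sides at 24 h. SlIDD3 lies on the first plate and SlIDD15 on the second, and the plate medians in that pair were -0.84 and 0.53. With the mean of the targets of each plate as reference, SlIDD3 stood at -1.91 and SlIDD15 at 1.06, both called. SlIDD3 at 2 h had a delta Ct of 6.96, 8.25, 8.58 and 6.84 under salt, 5.37, 5.08, 5.16 and 5.12 under low pH, and 5.32, 5.13, 5.35 and 5.02 under flood. Low pH and flood wells coincided and every salt well came later. Salt was 5.57-fold below low pH (log2 difference -2.48 ± 0.44, adjusted p = 0.00454) and 5.47-fold below flood (-2.45 ± 0.43, adjusted p = 0.00208), while low pH minus flood was 0.03 with an interval from -0.45 to 0.50.

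By 24 h the SlIDD3 wells had separated into 3 bands, with 6.38, 6.72 and 7.27 under salt, 3.39, 3.20, 2.79 and 3.57 under low pH, and 4.57, 4.88, 4.68 and 4.61 under flood. Low pH held the most transcript and salt the least, with no overlap between any 2 stresses. The log2 difference was -3.55 ± 0.32 for salt minus low pH (11.7-fold, adjusted p = 1.89e-11), -2.11 ± 0.27 for salt minus flood (adjusted p = 3.20e-05) and 1.44 ± 0.26 for low pH minus flood (adjusted p = 5.28e-05). SlIDD15 took another order at 24 h: its delta Ct was 2.69, 3.25, 3.49 and 3.48 under salt, 4.81, 4.74, 4.68 and 4.86 under low pH, and 3.70, 3.19, 3.44 and 3.82 under flood. Low pH was the lowest in transcript, apart from both others, and salt and flood overlapped. Salt minus low pH was 1.55 ± 0.28 (adjusted p = 1.15e-05) and low pH minus flood -1.24 ± 0.23 (adjusted p = 5.28e-05), which shrank to -0.28 with the mean of targets (adjusted p = 0.265). At 2 h no pair was called for SlIDD15, with differences from -0.42 to 0.60.

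SlIDD6 with SlIDD7, SlIDD13 and SlIDD14 forms a group (the SlIDD6 group) that is kin of Arabidopsis IDD9, IDD10 and IDD13, and in tomato SlIDD13 and SlIDD14 are known to shape stem thickness and leaves. Between low pH and flood at 24 h 3 of its 4 members were called, all higher under low pH, where 70.0% of all targets were called and 6 of 20 higher, and the median log2 difference of the group was 1.61 beside -0.24 over all 20 targets. SlIDD6 and SlIDD7 lie on the first plate (median 0.28 in this pair), SlIDD13 and SlIDD14 on the second (median -1.24). At 2 h the group had 1 call in each direction in the same pair. Between salt and low pH none of the 4 was called at 2 h and 2 were called lower under salt at 24 h, with a group median of -1.12 beside -0.51 over all targets.

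SlIDD6 accounted for the widest of these gaps. Its delta Ct at 24 h was 10.26, 10.16, 9.39 and 9.08 under salt, 6.09, 6.27, 6.50 and 6.07 under low pH, and 9.06, 8.88, 9.21 and 8.85 under flood. The low pH wells stood alone by more than 2 cycles, and salt and flood overlapped. The log2 difference was -3.49 ± 0.31 for salt minus low pH (11.2-fold, adjusted p = 1.23e-11) and 2.77 ± 0.24 for low pH minus flood (6.82-fold, adjusted p = 2.79e-08). At 2 h the same gene had wells from 8.29 to 9.02 under salt, from 7.43 to 9.11 under low pH and from 8.59 to 9.79 under flood, all ranges overlapped, and no pair was called.

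SlIDD13 followed SlIDD6 at 24 h on the other plate. Its wells gave 3.05, 3.17 and 3.42 under salt, 1.22, 0.98, 1.85 and 1.72 under low pH, and 3.02, 3.52, 3.50 and 3.91 under flood. Again the low pH wells alone stood apart, and salt and flood overlapped. Salt minus low pH was -1.77 ± 0.31 (adjusted p = 7.50e-06) and low pH minus flood 2.04 ± 0.27 (4.13-fold, adjusted p = 1.75e-06). At 2 h SlIDD13 was not called in any pair, with differences between -0.35 and 0.67. SlIDD7 was called higher under low pH than under flood at 24 h (1.17 ± 0.30, adjusted p = 0.00165). At 2 h it was lower than under flood both under low pH (-0.75 ± 0.25, adjusted p = 0.0174) and under salt (-0.84 ± 0.28, adjusted p = 0.0282). Both signs at 2 h depended on the reference: the first turned to 0.23 with ubiquitin of both plates and 0.02 with none, and the second to 0.88 with the mean of targets, a call the other way (adjusted p = 0.0422).

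SlIDD14 was low under flood. At 2 h its delta Ct was 5.11, 4.79, 4.94 and 4.96 under salt, 4.91 and 4.38 under low pH, and 7.12, 6.45, 6.13 and 5.65 under flood. All flood wells came later than all others, and low pH had only 2 wells with a value. Salt minus flood was 1.39 ± 0.34 (adjusted p = 0.0116) and low pH minus flood 1.70 ± 0.45 (adjusted p = 0.0116). The first was not called without well row 2 or 3 (1.20 and 1.60, adjusted p = 0.0726 and 0.0504), nor was the second without row 3 (1.64, adjusted p = 0.126). At 24 h salt minus flood was 1.07 ± 0.36 (adjusted p = 0.0269), and low pH minus flood was 0.78 with an interval from -0.13 to 1.69.

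The SlIDD1 group (SlIDD1, SlIDD17 and SlIDD18) is kin of Arabidopsis IDD1 and IDD2, which act with DELLA proteins in gibberellin signalling. At 24 h all 3 members were called lower under low pH than under flood, where 70.0% of all targets were called and 8 of 20 lower, with a median log2 difference of -2.05 beside -0.24 over all targets. SlIDD18 had delta Ct values of 6.56, 5.56 and 6.57 under salt, 8.13, 8.10, 8.37 and 8.30 under low pH, and 4.90, 5.34 and 6.06 under flood. The low pH wells were late and close together, and salt and flood overlapped. Low pH minus flood was -2.79 ± 0.29 (6.91-fold, adjusted p = 2.67e-07) and salt minus low pH 1.99 ± 0.31 (adjusted p = 2.33e-06). The gap to flood was present at 2 h (-1.50 ± 0.28, adjusted p = 8.07e-04), with wells at 7.14, 7.26 and 7.20 under low pH and from 5.32 to 6.08 under flood.

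For SlIDD17 at 24 h flood was the stress that stood apart. Its delta Ct was 3.84, 4.17, 4.67 and 4.64 under salt, 4.39, 4.20, 4.92 and 4.58 under low pH, and 2.09, 2.21, 3.09 and 2.48 under flood. Salt and low pH shared 1 range (difference 0.19, interval -0.40 to 0.79) and flood lay earlier in all wells. Salt minus flood was -1.86 ± 0.29 (adjusted p = 1.23e-04) and low pH minus flood -2.05 ± 0.27 (adjusted p = 1.75e-06). No pair was called for SlIDD17 at 2 h.

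SlIDD1 was highest under flood at both times. At 2 h its wells gave 9.94, 9.66, 8.04 and 7.06 under salt, 7.61, 7.61, 8.42 and 7.59 under low pH, and 6.54, 6.54, 6.48 and 6.32 under flood. The salt wells were spread over almost 3 cycles and overlapped those of low pH, whereas flood lay below all of them. Salt minus flood was -2.20 ± 0.61 (adjusted p = 0.0236), and this was not called when well row 1, 2 or 3 was left out (-1.77, -1.81 and -2.52, adjusted p = 0.0606, 0.0726 and 0.0628). Low pH minus flood was -1.34 ± 0.27 at 2 h (adjusted p = 9.02e-04) and -0.68 ± 0.26 at 24 h (adjusted p = 0.0278). Salt minus flood at 24 h was -1.24 ± 0.19 (adjusted p = 1.23e-04).

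The SlIDD2 group (SlIDD2, SlIDD10 and SlIDD11) is kin of rice IDD2, a repressor of lignin and cell wall genes. Its first member took the same place under low pH at both times. SlIDD2 at 2 h had wells at 4.06, 3.98, 3.68 and 3.50 under salt, 5.30, 4.95, 4.49 and 5.11 under low pH, and 3.24, 2.85 and 2.50 under flood, 3 bands without overlap. The difference of low pH minus flood was -2.10 ± 0.31 (4.28-fold, adjusted p = 3.16e-04), salt minus low pH 1.16 ± 0.28 (adjusted p = 0.00947) and salt minus flood -0.94 ± 0.30 (adjusted p = 0.0276).

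The differences of SlIDD2 with salt at 2 h depended on the reference. Salt minus low pH turned to -0.14 with ubiquitin of both plates, and salt minus flood turned to 0.78 with the mean of targets. Salt minus low pH was not called without well row 4 (1.01, adjusted p = 0.0532), and salt minus flood was not called when any 1 of the 4 well rows was left out (-0.82 to -1.08). At 24 h the low pH wells of SlIDD2 (4.29, 4.03, 4.54 and 4.07) lay apart from salt (3.36, 3.33, 3.63 and 3.25) and flood (3.37, 3.13, 2.94 and 3.03). Low pH minus flood was -1.11 ± 0.25 (adjusted p = 6.01e-04) and salt minus low pH 0.84 ± 0.28 (adjusted p = 0.0116), with salt minus flood at -0.27 (interval -0.72 to 0.18). SlIDD10 and SlIDD11 were both lower under salt than under flood at 24 h (-0.85 ± 0.21 and -0.83 ± 0.23, adjusted p = 0.00529 and 0.0109). SlIDD11 was lower under low pH than under flood at 2 h (-0.91 ± 0.26, adjusted p = 0.0112), and SlIDD10 was lower under salt than under low pH at 24 h (-1.03 ± 0.32, adjusted p = 0.00735). With the mean of targets the gaps to flood under salt turned to 0.30 and 0.32, and that of SlIDD10 to low pH turned to 0.61, none of them called. The gap of SlIDD11 at 2 h turned to 0.07 with ubiquitin of both plates.

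SlIDD5, SlIDD12 and SlIDD-like1 are kin of rice LPA1 and Arabidopsis IDD14 to IDD16, which set shoot gravitropism and plant architecture. SlIDD5 is the tomato OBV gene, needed for bundle sheath extensions in the leaf, and SlIDD-like1 controls the position of the stigma. Of these genes SlIDD12 had the largest gap between salt and flood. SlIDD9, which was listed with them, had a wider one (-5.66 at 24 h) and is described above. At 24 h the SlIDD12 wells gave 6.88, 7.10, 6.65 and 7.20 under salt, 5.54, 6.15, 6.49 and 7.19 under low pH, and 5.12, 5.39, 5.40 and 5.36 under flood. All flood wells were earlier than all salt and low pH wells, and the low pH wells ran from near flood to within the salt range. Salt minus flood was -1.64 ± 0.20 (3.12-fold, adjusted p = 1.30e-05) and low pH minus flood -1.03 ± 0.31 (adjusted p = 0.00636). At 2 h salt minus flood was -1.59 ± 0.47 (adjusted p = 0.0236), with salt wells from 6.15 to 8.59 and flood wells from 5.68 to 5.88, and the call was lost without well row 1, 2 or 3 (-1.27, -1.57 and -1.56, adjusted p = 0.0522, 0.0726 and 0.106).

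SlIDD-like1 was the target with the largest difference in favour of low pH over flood at 2 h. Its delta Ct was 3.96 and 4.05 in the 2 low pH wells with a value, 5.66, 5.73 and 5.77 under flood and 4.86, 5.49, 4.74 and 4.24 under salt. The 3 stresses did not overlap. The log2 difference of low pH minus flood was 1.71 ± 0.27 (3.28-fold, adjusted p = 5.14e-04), and the other pairs were not called (adjusted p = 0.203 for salt minus low pH and 0.0519 for salt minus flood). At 24 h no pair was called for this gene. SlIDD5 was lower than under flood both under salt (-1.14 ± 0.38, adjusted p = 0.0316) and under low pH (-1.32 ± 0.32, adjusted p = 0.00630) at 2 h, and at 24 h the called pair was salt minus low pH (-0.84 ± 0.29, adjusted p = 0.0118). With the mean of targets the latter was called the other way (0.79, adjusted p = 0.00753), and salt minus flood at 2 h turned to 0.58.

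SlIDD16, also named SlZF-31, is known for a part in salt and drought tolerance of tomato, and it was low under low pH. At 24 h its delta Ct was 3.47, 3.40, 3.91 and 3.96 under salt, 5.19, 5.10, 5.55 and 5.43 under low pH, and 2.97, 3.07, 3.22 and 3.73 under flood. The low pH wells lay more than 1 cycle after all others, and salt and flood overlapped. The gap of low pH minus flood was -2.07 ± 0.24 (4.20-fold, adjusted p = 3.43e-07) and salt minus low pH 1.63 ± 0.28 (adjusted p = 5.75e-06), whereas salt minus flood was -0.44 with an interval from -0.96 to 0.09. At 2 h the low pH wells fell into a later and an earlier pair, at 7.52, 4.47, 6.94 and 4.32, beside 3.55, 3.54, 3.64 and 3.32 under flood. This put low pH minus flood at -2.30 ± 0.72 (adjusted p = 0.0181), and the call was lost without well row 1 or 3, the rows that held the later pair (-1.91 and -1.83, adjusted p = 0.0571 and 0.145).

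SlIDD8 is kin of Arabidopsis IDD3 and IDD8, which act in root development and in sugar metabolism and flowering. At 24 h its delta Ct was 4.32, 4.75, 5.11 and 5.60 under salt, 3.12, 3.33, 2.87 and 2.75 under low pH, and 4.31, 4.50, 4.63 and 4.49 under flood. Low pH lay before both others and salt and flood overlapped. Salt minus low pH was -1.93 ± 0.31 (3.80-fold, adjusted p = 2.33e-06) and low pH minus flood 1.46 ± 0.25 (adjusted p = 3.91e-05). At 2 h no pair was called, and 1 salt well at 8.78 stood beside others from 5.02 to 5.68. SlIDD4, kin of the Arabidopsis root patterning factors IDD5 and IDD6, was lower under low pH than under flood at 2 h (-1.26 ± 0.37, adjusted p = 0.0132) and lower under salt than under flood at 24 h (-0.65 ± 0.20, adjusted p = 0.0161). The latter was called the other way with the mean of targets (0.50, adjusted p = 0.0191).

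STF4 and CRF5, of which CRF5 is a cytokinin response factor, could be compared only between salt and flood. STF4 was lower under salt at 2 h, with wells at 1.88, 2.37, 1.94 and 2.08 against 1.32, 0.62, 1.11 and 1.53 under flood (log2 difference -0.92 ± 0.29, adjusted p = 0.0236). At 24 h its flood wells spread from 0.96 to 2.81 around the salt wells, and salt minus flood had an interval from -0.89 to 1.03. CRF5 was not called at either time, with intervals from -0.84 to 0.42 at 2 h and from -0.29 to 0.61 at 24 h.

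Whether a gap between 2 stresses changed from 2 h to 24 h was tested as an interaction. Both times of a stress lie on the same plate, so a constant shift of a plate cancels. For salt against low pH 2 of 20 targets were called (10.0%), SlIDD6 at -3.17 ± 0.53 (adjusted p = 1.62e-04) and SlIDD13 at -2.44 ± 0.47 (adjusted p = 7.81e-04). Under low pH the mean delta Ct of SlIDD6 went from 8.33 at 2 h to 6.23 at 24 h, and under salt from 8.65 to 9.72. That of SlIDD13 went from 3.79 to 1.44 under low pH and from 3.12 to 3.21 under salt. For salt against flood 1 of 22 was called (4.55%), SlIDD7 at 1.54 ± 0.42 (adjusted p = 0.0291), and it was lost without well row 1, 2 or 4 (1.31, 1.42 and 1.68, adjusted p = 0.159, 0.228 and 0.0967) and with the well row as a replicate block (adjusted p = 0.0686).

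For low pH against flood 13 of 20 targets were called (65.0%), 8 with a gap that moved towards low pH and 5 with a gap that moved towards flood, and this split followed the plates. All 11 targets of the first plate had a positive interaction, with a median of 1.42, and 7 of the 9 of the second plate a negative one, with a median of -1.23. Ubiquitin moved with it: its own Ct interaction of low pH minus flood was 1.25 cycles on the first plate and -0.40 cycles on the second. With no reference gene 2 targets were called, and with ubiquitin of both plates or the mean of targets 1 was called. SlIDD13 was the target called with all 5 references (2.40 ± 0.43, adjusted p = 1.28e-04), although it lies on the second plate, where the other called targets were negative.

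The other called interactions between low pH and flood were given by the same fit. On the first plate they were 0.99 for SlIDD2, 1.42 for SlIDD3, 1.60 for SlIDD5, 1.87 for SlIDD6, 1.92 for SlIDD7, 1.52 for SlIDD8 and 1.71 for SlIDD9. On the second plate they were -1.99 for SlIDD-like1, -1.23 for SlIDD12, -1.61 for SlIDD17, -1.29 for SlIDD18 and -1.48 for SlSTOP1. With no reference those of the first plate ran from -0.26 for SlIDD2 to 0.67 for SlIDD7, and none was called. Those of the second plate ran from -1.59 for SlIDD-like1, which was called, to -0.83 for SlIDD12, and the others were not called. With ubiquitin of both plates none of these interactions was called. Why they shrank was not tested. Leaving out 1 well row ended the call for SlIDD2 (row 1, 2 or 4, lowest value 0.88), SlIDD12 (row 3 or 4, -1.14 and -0.92) and SlIDD18 (row 1 or 2, -0.77 and -1.17), and SlIDD2 turned to -0.22 with the mean of targets and to -0.26 with no reference.

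**Figure D4:**
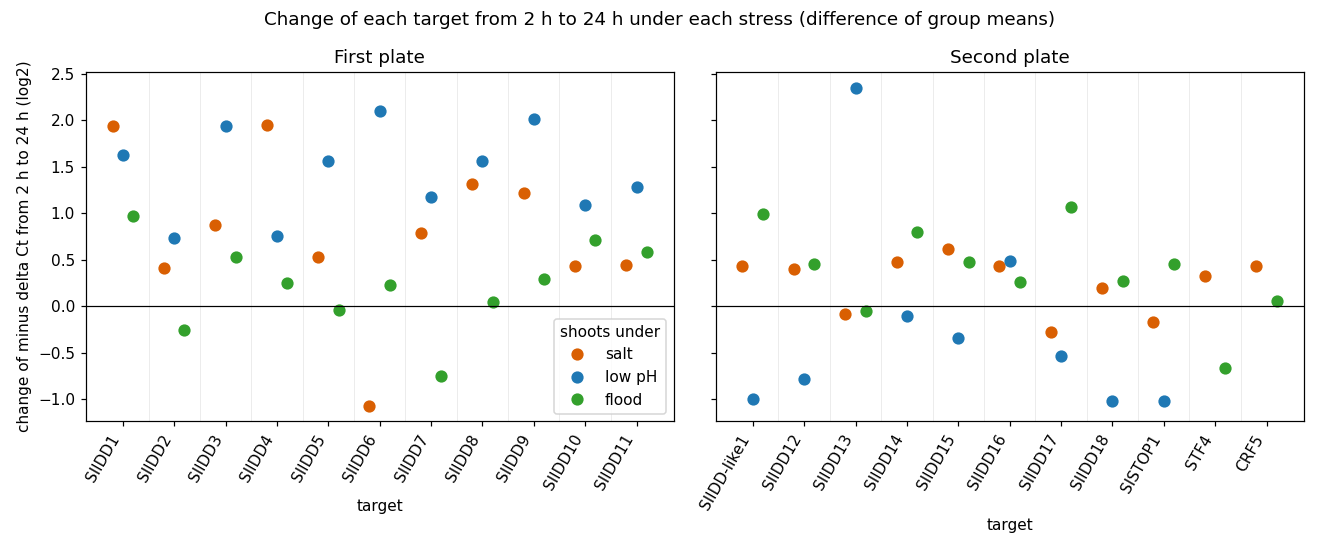
Change of the mean minus delta Ct from 2 h to 24 h, on the log2 scale, for each target under each stress, the first plate on the left and the second on the right. Low pH points lay above flood points in all 11 targets of the first plate and below them in 7 of the 9 of the second.

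Each difference was set against 5 references: ubiquitin of the same plate, ubiquitin of both plates, ubiquitin of the same plate and well row, the mean of the targets of the plate, and none. The first and the third are nearly the same quantity. The mean of targets includes SlIDD9, whose late salt wells move the first-plate reference in pairs with salt. For salt minus low pH at 24 h the first-plate Ct difference was 2.37 cycles as a mean and 1.58 as a median of targets. In all, 31 differences were called in the same direction with every reference. Per comparison they were 2 of 3 calls for salt against low pH at 2 h, 2 of 10 for salt against flood and 2 of 11 for low pH against flood, and 7 of 11, 5 of 10 and 10 of 14 at 24 h. Among the interactions they were 2 of 2, 0 of 1 and 1 of 13.

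Over the 5 references the log2 difference of SlIDD9 stayed between -7.00 and -4.70 for salt minus low pH at 2 h, between -6.90 and -4.87 for salt minus flood at 2 h, between -7.22 and -4.85 for salt minus low pH at 24 h, and between -6.88 and -4.51 for salt minus flood at 24 h. SlIDD3 stayed below 0 in all 4 pairs and was called with every reference in 3 of them, at -3.77 to -1.47 and -4.28 to -1.91 against low pH and at -3.32 to -0.96 against flood at 24 h. The low pH gain of SlIDD6 over flood at 24 h ranged from 2.28 to 2.86 and that of SlIDD13 from 1.25 to 3.00. On the lower side of low pH against flood at 24 h SlIDD18 ranged from -3.58 to -1.83, SlIDD16 from -2.86 to -1.12, SlIDD17 from -2.84 to -1.10, SlSTOP1 from -2.75 to -1.01 and SlIDD2 from -1.60 to -1.02. SlIDD16 and SlIDD18 were also below flood at 2 h with every reference (-3.49 to -2.09 and -2.69 to -1.29), and SlIDD14 was above flood under salt at 2 h (1.39 to 1.90). Among the fully described differences between 2 stresses that were not called with every reference, several kept their sign but shrank. With the mean of targets, salt minus flood at 2 h came to -0.48 for SlIDD1 (adjusted p = 0.526), -0.73 for SlIDD3 (adjusted p = 0.207) and -1.35 for SlIDD12 (adjusted p = 0.0510), and salt minus low pH at 24 h to -0.29 for SlIDD8 (adjusted p = 0.384). With ubiquitin of both plates, low pH minus flood at 2 h was -1.12 for SlIDD2 (adjusted p = 0.102), 0.73 for SlIDD-like1 (adjusted p = 0.273) and 0.72 for SlIDD14 (adjusted p = 0.361), and with no reference 0.52 and 0.50 for the last pair. Of all 75 called differences, interactions included, 47 were called in the same direction with ubiquitin of both plates, 38 with the mean of targets and 49 with no reference.

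Among the other differences given above, ubiquitin of both plates brought low pH minus flood at 2 h to -0.36 for SlIDD1, -0.28 for SlIDD4 and -0.35 for SlIDD5, and salt minus low pH at 24 h to 0.21 for SlIDD2, none of them called. It also left low pH minus flood of SlIDD1 at 24 h at -0.59 (adjusted p = 0.183). With the mean of targets, salt minus flood at 24 h was -0.09 for SlIDD1 and low pH minus flood at 24 h was -0.07 for SlIDD12, again not called. With no reference, salt minus flood came to -0.30 for SlSTOP1 and -0.41 for STF4 at 2 h and to 0.81 for SlIDD14 at 24 h, and none of these passed (adjusted p = 0.241, 0.187 and 0.0561).

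**Figure D5:**
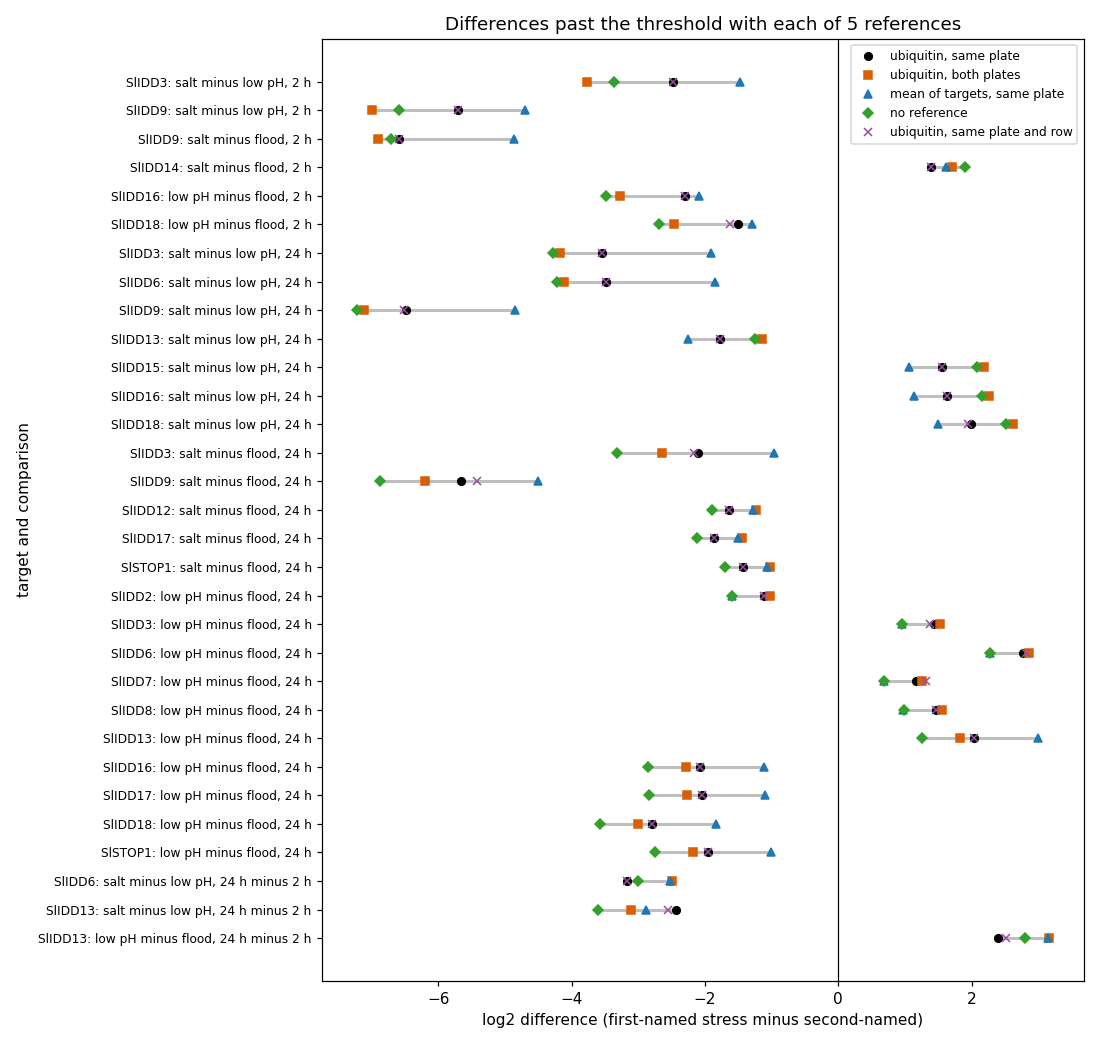
Log2 differences (first-named stress minus second-named) of the 31 called with each of 5 references, one row per target and comparison and one marker per reference. Every marker of a row lies on the same side of 0, with the SlIDD9 rows between -7.22 and -4.51.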

How the data were processed

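The values are threshold cycles (Ct) per well as deposited by the authors, in PCR cycles before any normalization, from SYBR Green qRT-PCR run on a T100 Thermocycler and read in CFX Maestro; over the wells used they ran from 14.74 to 32.65. The authors' other sheets hold relative quantities and fold changes of treated over control and were not used. Stress and tissue follow titles and source names, since the characteristics name other treatments or tissues for some samples. The labels assign times to plates (2 h first, 24 h second). Here time was read from the well rows instead, 2 h in A to D and 24 h in E to H, and second-plate targets were placed by matching the fold changes in the study's tables, so those tables are no independent evidence of the layout. In the 576 wells of the 6 columns, 9 first-plate wells with irregular names were left out and 6 on the second plate kept in plate order.

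Minus delta Ct (mean ubiquitin of the same plate, stress and time minus the target) of single wells was fitted per pair of stresses in R 4.3.3. Each target was fitted by least squares, and its variance was moderated across targets with squeezeVar of limma 3.58.1. With no reference, lmFit and eBayes of limma served as a check of this fit. Ubiquitin's own error was then added (Satterthwaite degrees of freedom), and two-sided p-values were adjusted by Benjamini-Hochberg over the targets of a comparison, at a threshold of 0.05, in 6 pairwise comparisons and 3 interactions. limma borrows spread across targets, which can make p very small at 3 or 4 wells. Ubiquitin was compared by exact permutation tests. The script was tested on simulated data. Python 3.11.15 with pandas 2.3.3, numpy 2.4.6 and matplotlib 3.10.9 made the tables and plots.

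Full statistics were to be given for the 5 targets with the largest called difference in each pair, those called in all 3 pairs of a time and those called in an interaction (48 values, 16 targets). The other values named were added after they were seen, so that each target is accounted for. Lists follow the phylogenetic groups described in the study. SlIDD9 was placed here with SlIDD5, SlIDD12 and SlIDD-like1, whereas the study's text describes it as a close homolog of Arabidopsis STOP1. Members, lists and tests were chosen with earlier results of these data known. Alternatives were other references, 1 fit over all stresses, the well row as a block or left out, exact permutation, adjustment over all comparisons and irregular wells kept in plate order. Leaving irregular wells out on both plates was added after seeing the data.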

Additional observations from a re-analysis of the deposited data

Results flagged for a closer look

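In 7 of the 112 groups of 4 wells, 1 well lay far from the others. Chance alone gives about 1 in 20 such groups, so the count is near the chance rate. The delta Ct of SlIDD1 under low pH at 2 h was 8.42 in 1 well and 7.59 to 7.61 in the others. SlIDD10 under flood at 2 h had 1 well at 5.73 beside 4.45 to 4.65, and SlIDD8 under flood at 2 h 1 at 4.83 beside 4.40 to 4.43. SlIDD12 under flood at 24 h had 1 at 5.12 beside 5.36 to 5.40. SlIDD15 at 2 h had a far well in both of 2 stresses, 5.26 beside 4.12 to 4.20 under low pH and 4.54 beside 3.56 to 3.64 under salt, both in the first well row. The ubiquitin Ct of low pH on the second plate at 2 h was 17.58 in 1 well and 17.05 to 17.10 in the others, and this well enters the reference of every second-plate target of that group.

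The gap between 2 stresses differed between 2 h and 24 h by the interaction test in 16 cases. With every reference 2 of 2 were called for salt against low pH, 0 of 1 for salt against flood and 1 of 13 for low pH against flood. In the last pair the signs went largely with the plate, as described above. For salt minus low pH the change of the log2 difference was -3.17 for SlIDD6 and -2.44 for SlIDD13, and for salt minus flood 1.54 for SlIDD7. For low pH minus flood it was 0.99 for SlIDD2, 1.42 for SlIDD3, 1.60 for SlIDD5, 1.87 for SlIDD6, 1.92 for SlIDD7, 1.52 for SlIDD8, 1.71 for SlIDD9 and 2.40 for SlIDD13, and on the negative side -1.99 for SlIDD-like1, -1.23 for SlIDD12, -1.61 for SlIDD17, -1.29 for SlIDD18 and -1.48 for SlSTOP1.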

How the results depend on the processing

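Counts of called targets moved by more than 1.5 times as follows. Salt against low pH at 2 h went from 3 to 13 with ubiquitin of both plates, 8 with the mean of targets, 15 with no reference, 5 with ubiquitin of the same plate and row and 5 when adjusted over all comparisons. Salt against flood at 2 h went from 10 to 6 with the mean of targets, to 6 with ubiquitin of the same row, and to between 2 and 6 with 1 well row left out. Low pH against flood at 2 h went from 11 to 7 with both plates, to 7 with the mean of targets, and to as few as 6 with a row left out. At 24 h salt against low pH rose from 11 to 17 with both plates and 17 with no reference, and salt against flood from 10 to 18 with both plates, or as few as 6 with a row left out. The interaction of salt and low pH went from 2 to 4 with ubiquitin of the same row and 4 when adjusted over all; that of salt and flood from 1 to 0 with both plates, 5 with no reference, 3 when adjusted over all, and 0 to 2 with a row left out; that of low pH and flood from 13 to 1 with both plates, 1 with the mean of targets and 2 with none. The exact permutation test, whose smallest p is 0.0286 with 4 wells against 4 or 3 and higher with fewer, called 13 in low pH against flood at 24 h. In the other 5 pairs it called 0, where limma called 3 to 11 and 5 to 15 had an unadjusted limma p under 0.05. After adjustment that smallest p passes only if many targets of a pair reach it together, so the 0 calls do not bear on the limma calls. Of the 75 called differences, 4 turned sign with both plates, 9 with the mean of targets (3 of them called the other way: SlIDD7 for salt minus flood at 2 h, SlIDD5 for salt minus low pH and SlIDD4 for salt minus flood at 24 h) and 2 with no reference. Among the 48 values chosen by the rule, those that turned were SlIDD2 for salt minus low pH at 2 h (-0.14, both plates) and salt minus flood at 2 h (0.78, mean of targets), SlIDD9 for low pH minus flood at 2 h (0.09, both plates), and the SlIDD2 interaction of low pH and flood (-0.22, mean of targets, and -0.26, none).

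Same-numbered well rows share only a number: their deviations correlated from -0.36 to 0.38 in 24 pairs, 12 of them above 0.1, and a row correlated best with its own number in 9. With the row as a replicate block the salt and flood interaction went from 1 call to 0, and 3 of the 48 named values lost their call: SlIDD9 for low pH minus flood at 24 h (adjusted p = 0.0876), SlIDD7 for the salt and flood interaction (0.0686) and SlIDD2 for that of low pH and flood (0.0574). Neither handling of irregular wells changed a named call. Of the 48 named values, 17 lost their call with both plates, 18 with the mean of targets, 17 with no reference, 5 in 1 fit over all stresses and 6 to 9 with a row left out.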
